A study of Mus musculus with 6 samples.

Results

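The nuclear genes for respiratory chain complexes II to V and cytochrome c were examined in the livers of mice with and without SHMT2 in hepatocytes. The genes were taken by symbol (Sdha to Sdhd and the Sdhaf genes, Uqcr genes, Cyc1, Cycs, Cox4 to Cox8 genes and Atp5 genes), without pseudogenes, if at least 3 of the 6 samples held 10 or more counts. Of the 49671 genes in the count table, 60 matched by symbol, 7 of these were pseudogenes, and 49 of the remaining 53 passed the count minimum. Cox6a2, Cox7b2, Cox8b and Cox8c did not pass it. The 49 genes comprised 8 for complex II, 9 for complex III, 14 for complex IV, 17 for complex V and Cycs. The symbols brought in some genes that are not structural subunits, namely the 4 assembly factors Sdhaf1 to Sdhaf4, the supercomplex factor Cox7a2l and the coupling factor B gene Atp5s, and 39 genes remained as main subunits of the complexes when these, Cycs and the 3 tissue isoforms Cox4i2, Cox6b2 and Cox7a1 were set apart.

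The libraries were made from the livers of 6 male mice, 3 SHMT2 fl/fl and 3 SHMT2 HKO, with 1 library per mouse. All mice carried Shmt2 alleles with loxP sites around exons 3 to 12 on a C57BL/6J background and ate the AMLN diet, a fatty diet with added fructose and cholesterol, for 18 weeks beginning at 4 weeks of age. The SHMT2 HKO mice also carried Albumin-Cre, which the study used to target hepatocytes, and the SHMT2 fl/fl mice carried no Cre. The samples are labelled KO and WT, so that WT stands for the floxed mice, and no group with Cre but without floxed alleles and no group on another diet was analysed here. The comparison of the genotypes asks how the messages of the respiratory chain stand on this diet when a mitochondrial enzyme of serine catabolism is deleted in hepatocytes. Mice of each group are numbered 1 to 3, and values are listed in that order.

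Complex II (succinate dehydrogenase) passes electrons from succinate to ubiquinone and is also an enzyme of the TCA cycle. Complex III passes electrons from ubiquinol to cytochrome c, complex IV (cytochrome c oxidase) passes them to oxygen, and complex V (ATP synthase) uses the proton gradient to make ATP. Complex II is built from nuclear genes alone, whereas complexes III to V join nuclear subunits with subunits encoded by mitochondrial DNA, and several complex IV subunits exist as a ubiquitous isoform and an isoform of muscle, lung or testis. Many of the nuclear genes have promoters rich in CpG that are bound by NRF1 and by ETS family factors such as GABP.

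Promoter sequences from RefSeq (GRCm38.p6, the build of the count table) were available for 38 of the 49 genes, as 41 windows of 300 bases that run from 250 bases before to 50 bases after the start of transcription. The letters GCGCA and GCGC with any 1 base (N) between them, bound by NRF1, were found on either strand in 29.3% of these windows and in 4.60% of all 32851 windows of the same length. CCGGAAG, bound by ETS factors, was found in 36.6% and 8.86%, AAGATGGCG, bound by YY1, in 4.88% and 1.403%, and AAGGTCA, bound by estrogen-related receptors, in 12.2% and 4.72%. GGGCGGG, bound by SP1, was found in 29.3% of the windows and in 25.6% of all windows. In total, 27 of the 38 genes held at least 1 of these motifs. A match to letters is a description of the sequence and not of a bound factor. Stretches of 70 bases are shown for genes that are described below, each 5′ to 3′ on the strand of the gene, with the motifs found within the stretch in capitals. The stretch of Sdha lies at chr13:74350241-74350310 (minus strand) and shows the NRF1 letters at 2 places, Sdhd at chr9:50603859-50603928 (minus strand) shows NRF1 and ETS letters, Atp5c1 at chr2:10080433-10080502 (minus strand) shows NRF1 letters and Uqcr11 at chr10:80406822-80406891 (minus strand) shows ETS letters. Atp5h at chr11:115419920-115419989 (minus strand) shows ETS letters, Atp5g3 at chr2:73911327-73911396 (minus strand) shows the letters of estrogen-related receptors on the opposite strand, and Cox6a1 at chr5:115349051-115349120 (minus strand) shows NRF1 letters at 2 places. The last stretch is from Cox6b2 at chr7:4753218-4753287 (minus strand), a tissue isoform with SP1 letters as its only match.
Sdha: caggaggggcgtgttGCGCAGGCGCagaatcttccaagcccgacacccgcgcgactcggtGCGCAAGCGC
Sdhd: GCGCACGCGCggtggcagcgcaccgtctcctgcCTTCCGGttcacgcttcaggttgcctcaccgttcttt
Atp5c1: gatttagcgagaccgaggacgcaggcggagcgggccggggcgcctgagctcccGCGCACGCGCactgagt
Uqcr11: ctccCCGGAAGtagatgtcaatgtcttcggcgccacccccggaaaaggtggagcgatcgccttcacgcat
Atp5h: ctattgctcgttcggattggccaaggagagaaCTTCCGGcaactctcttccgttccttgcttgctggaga
Atp5g3: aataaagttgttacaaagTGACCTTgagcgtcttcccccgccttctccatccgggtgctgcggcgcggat
Cox6a1: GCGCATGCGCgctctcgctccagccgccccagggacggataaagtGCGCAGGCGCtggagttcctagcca
Cox6b2: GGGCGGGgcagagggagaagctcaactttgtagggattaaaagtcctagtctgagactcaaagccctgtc

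The libraries held 23090837 to 34089722 counts on genes, and a level is given in CPM, counts relative to library size, with library sizes scaled by TMM, a method that centres the fold changes of most genes on 0. A count of 3 corresponded to 0.0733 to 0.152 CPM. Shmt2 (chromosome 10, 127517123 to 127522444) was at 94.5, 109 and 93.8 CPM in the SHMT2 fl/fl mice and 24.9, 28.2 and 19.3 CPM in the SHMT2 HKO mice. Every SHMT2 HKO mouse was below every SHMT2 fl/fl mouse (log2 fold change -2.04, SE 0.16, adjusted p = 0.000639), as the labels imply.

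On the TMM scale, the nuclear messages of all 4 complexes were mostly higher in the SHMT2 HKO livers. By the edgeR quasi-likelihood test with adjustment over all 16089 genes tested, 17 of the 49 genes rose and 1, Cox6b2, fell, while 12.5% of all genes tested rose and 16.5% fell. The remaining 31 genes did not pass the test. Fold changes were above 0 for 46 of the 49 genes and for 51.9% of all genes tested, and the median log2 fold change was 0.55 for the 49 genes and 0.03 for all genes tested. Among the 39 main subunits, 15 rose, all 39 had a fold change above 0, and the log2 fold changes ran from 0.34 to 0.90 with a median of 0.56. The groups did not overlap for 30 of the 49 genes, with SHMT2 HKO higher for 28 (21.9% of all genes tested) and lower for 2 (25.0%), and they overlapped for 19.

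These directions hold relative to the bulk of genes and not for every scaling. With library size alone, the median of all genes moved by -0.42 on the log2 scale, 36 of the 49 genes stayed above 0 and their median was 0.10. With scaling to the ERCC RNAs, which are spike-in molecules, the median of all genes moved by -0.72, only 3 of the 49 genes stayed above 0 and their median was -0.26. The spike-in RNAs made up 1.47%, 1.84% and 1.42% of all counts in the SHMT2 fl/fl mice and 2.75%, 2.31% and 1.35% in the SHMT2 HKO mice. Under each setting tried, the median of the 49 genes stood 0.43 to 0.68 above the median of all genes tested. In bulk liver RNA, a difference in the number of hepatocytes and a difference in RNA per hepatocyte cannot be told apart.

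The SHMT2 HKO mice did not differ from the SHMT2 fl/fl mice to the same extent. SHMT2 HKO mouse 3 had the lowest level of the SHMT2 HKO mice for 44 of the 49 genes and was within the range of the SHMT2 fl/fl mice for 16, while mouse 1 was the highest for 25 and mouse 2 for 24. In the SHMT2 fl/fl group, mouse 1 was the lowest for 42 genes. The plot of levels by mouse shows these columns side by side.

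**Figure D1:**
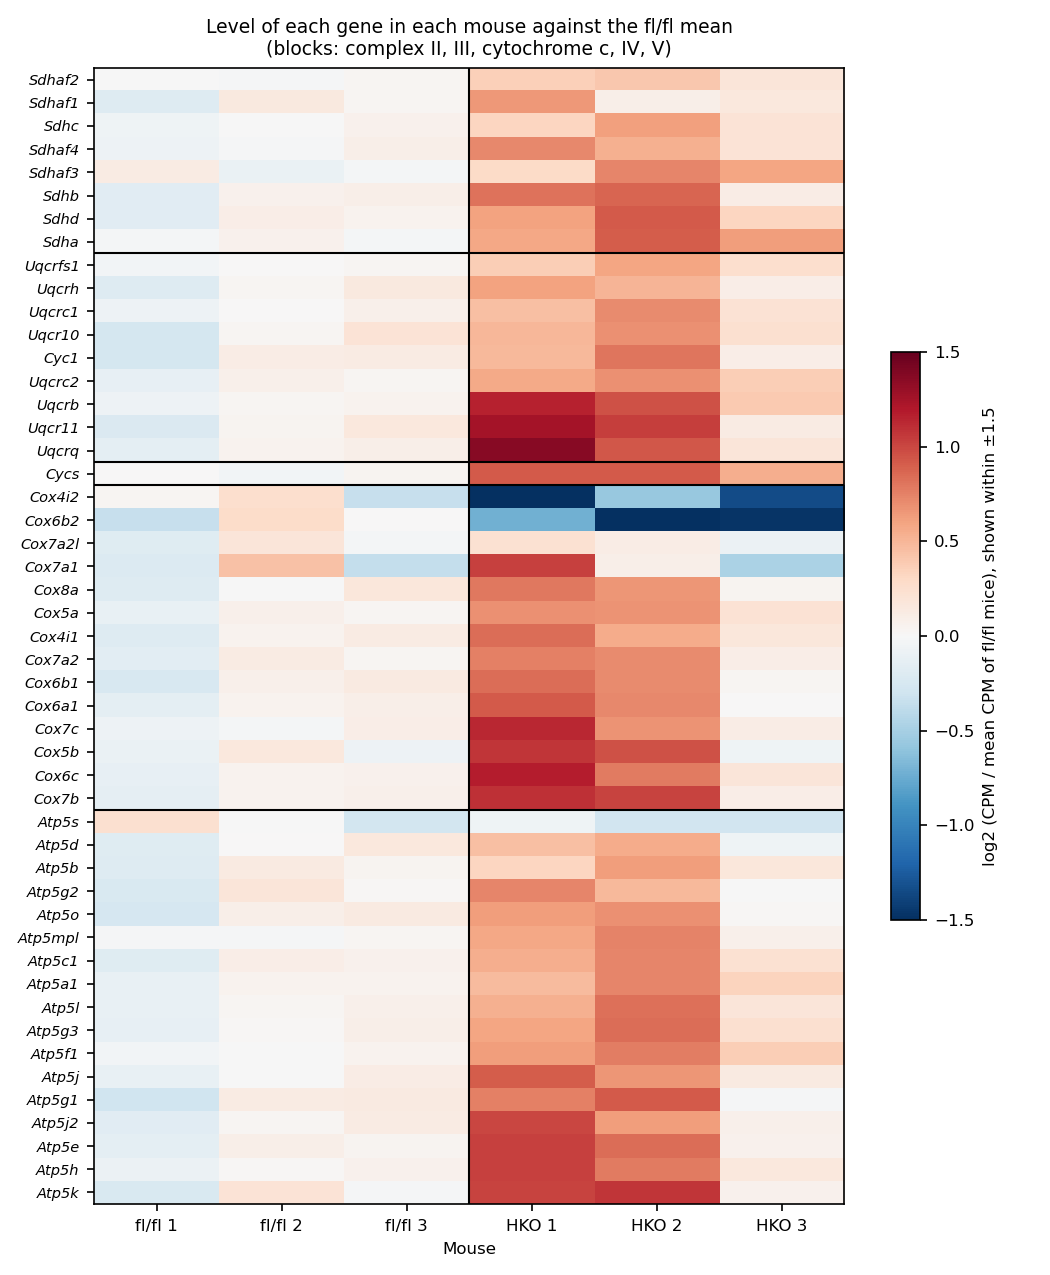
Level of each of the 49 genes (rows, grouped by complex) in each of the 6 mice (columns), as the log2 ratio of its CPM on the TMM scale to the mean of the SHMT2 fl/fl mice, with red above and blue below that mean and colours limited to ±1.5. Most rows are red in SHMT2 HKO mice 1 and 2 and paler in mouse 3, and Cox4i2 and Cox6b2 are blue in all 3 SHMT2 HKO mice, whereas with spike-in scaling 3 of the 49 genes were higher in SHMT2 HKO.

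Complex II was measured through its 4 subunits and 4 assembly factors. On the TMM scale, Sdha, Sdhd and the assembly factor Sdhaf4 rose (3 of 8, against 12.5% of all genes tested). The other 5 genes did not pass the test, with a median over the 8 genes of 0.53 (-0.25 with spike-in scaling). Sdha, which encodes the flavoprotein that oxidises succinate, was at 376, 402 and 376 CPM in the SHMT2 fl/fl mice and 573, 723 and 594 CPM in the SHMT2 HKO mice. All SHMT2 HKO mice were above all SHMT2 fl/fl mice, with mouse 2 the highest (log2 fold change 0.71, SE 0.15, adjusted p = 0.0113). Sdhd, a membrane anchor whose promoter shows both NRF1 and ETS letters above, was at 112, 135 and 130.5 CPM in the SHMT2 fl/fl mice and 192, 239 and 157 CPM in the SHMT2 HKO mice and rose with the groups apart (log2 fold change 0.64, SE 0.17, adjusted p = 0.0276).

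Sdhb, the iron-sulfur subunit, which the study also probed by antibody in livers of chow-fed mice, was at 156, 183 and 186 CPM in the SHMT2 fl/fl mice and 307, 319 and 189 CPM in the SHMT2 HKO mice. SHMT2 HKO mouse 3 was just above the highest SHMT2 fl/fl mouse, and the gene did not pass the test (log2 fold change 0.64, SE 0.21, adjusted p = 0.0518). The study found the proteins of Sdhb, Uqcrc2 and Atp5a1 at similar levels in both genotypes on chow. Protein on chow and RNA on the AMLN diet are different measures in different mice. Sdhc, the other membrane anchor, was at 149.7, 156 and 163 CPM in the SHMT2 fl/fl mice and 196, 238 and 180.4 CPM in the SHMT2 HKO mice, without overlap and without passing the test (log2 fold change 0.39, SE 0.14, adjusted p = 0.0702). Among the assembly factors, which load the cofactors onto Sdha and Sdhb and guard the unassembled subunits, Sdhaf4 was at 13.6, 14.2 and 15.3 CPM in the SHMT2 fl/fl mice and 23.7, 20.8 and 16.6 CPM in the SHMT2 HKO mice and rose (log2 fold change 0.50, SE 0.16, adjusted p = 0.0433). Sdhaf3 (0.55, adjusted p = 0.059), Sdhaf1 (0.32, adjusted p = 0.259) and Sdhaf2 (0.32, adjusted p = 0.0643) did not pass the test, where each value is a log2 fold change. Exons of Sdhaf1 share 69.6% of their length with E130208F15Rik on the opposite strand, and how the counting treated strand and overlap is not given in the sources used here, so its level is uncertain.

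Cycs, the single gene for the somatic cytochrome c that carries electrons from complex III to complex IV, had the smallest adjusted p of the 49 genes. It was at 94.6, 91.2 and 96.7 CPM in the SHMT2 fl/fl mice and 178, 179 and 138 CPM in the SHMT2 HKO mice, with every SHMT2 HKO mouse above every SHMT2 fl/fl mouse (log2 fold change 0.81, SE 0.14, adjusted p = 0.00471). Its log2 fold change was 0.02 with spike-in scaling, and it passed the test under the other settings tried, including each in which 1 mouse was left out.

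For complex III, 4 of 9 genes rose on the TMM scale (against 12.5% of all genes tested), with a median over the 9 of 0.49 (-0.29 with spike-in scaling). The largest fold changes were those of Uqcrq, Uqcr11 and Uqcrb, small accessory subunits, and the smallest were those of Uqcrfs1, Uqcrh and Uqcrc1. Uqcrq was at 213, 245 and 251 CPM in the SHMT2 fl/fl mice and 609, 451 and 267 CPM in the SHMT2 HKO mice. The spread within SHMT2 HKO was wide, as mouse 1 was far above mouse 3, which still exceeded all SHMT2 fl/fl mice (log2 fold change 0.90, SE 0.27, adjusted p = 0.0391).

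Uqcr11 was at 80.3, 95.7 and 104 CPM in the SHMT2 fl/fl mice and 222, 191 and 101 CPM in the SHMT2 HKO mice, with SHMT2 HKO mouse 3 inside the SHMT2 fl/fl range (log2 fold change 0.88, SE 0.27, adjusted p = 0.042). Uqcrb was at 88.5, 95.01 and 96.6 CPM in the SHMT2 fl/fl mice and 209, 181 and 123 CPM in the SHMT2 HKO mice and its groups were apart (log2 fold change 0.87, SE 0.19, adjusted p = 0.0125). The core protein gene Uqcrc2, which the study probed by antibody in chow-fed mice, was at 161, 184 and 178 CPM in the SHMT2 fl/fl mice and 258, 279.9 and 225 CPM in the SHMT2 HKO mice and rose (log2 fold change 0.55, SE 0.14, adjusted p = 0.0209), while the other core protein gene, Uqcrc1, did not pass the test (log2 fold change 0.48, SE 0.16, adjusted p = 0.0537).

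The catalytic subunits of complex III encoded in the nucleus did not pass the test. Cyc1, cytochrome c1, was at 176, 227 and 229 CPM in the SHMT2 fl/fl mice and 294, 366 and 226 CPM in the SHMT2 HKO mice, with SHMT2 HKO mouse 3 within the SHMT2 fl/fl range (log2 fold change 0.49, SE 0.20, adjusted p = 0.104). Uqcrfs1, the Rieske iron-sulfur protein, was at 158, 162 and 166 CPM in the SHMT2 fl/fl mice and 209, 244 and 193 CPM in the SHMT2 HKO mice, without overlap (log2 fold change 0.41, SE 0.13, adjusted p = 0.0509). Uqcrh, the acidic hinge protein, did not pass either (log2 fold change 0.42, SE 0.16, adjusted p = 0.086). The small subunit gene Uqcr10 had its groups apart and did not pass the test (log2 fold change 0.49, adjusted p = 0.0587).

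**Figure D2:**
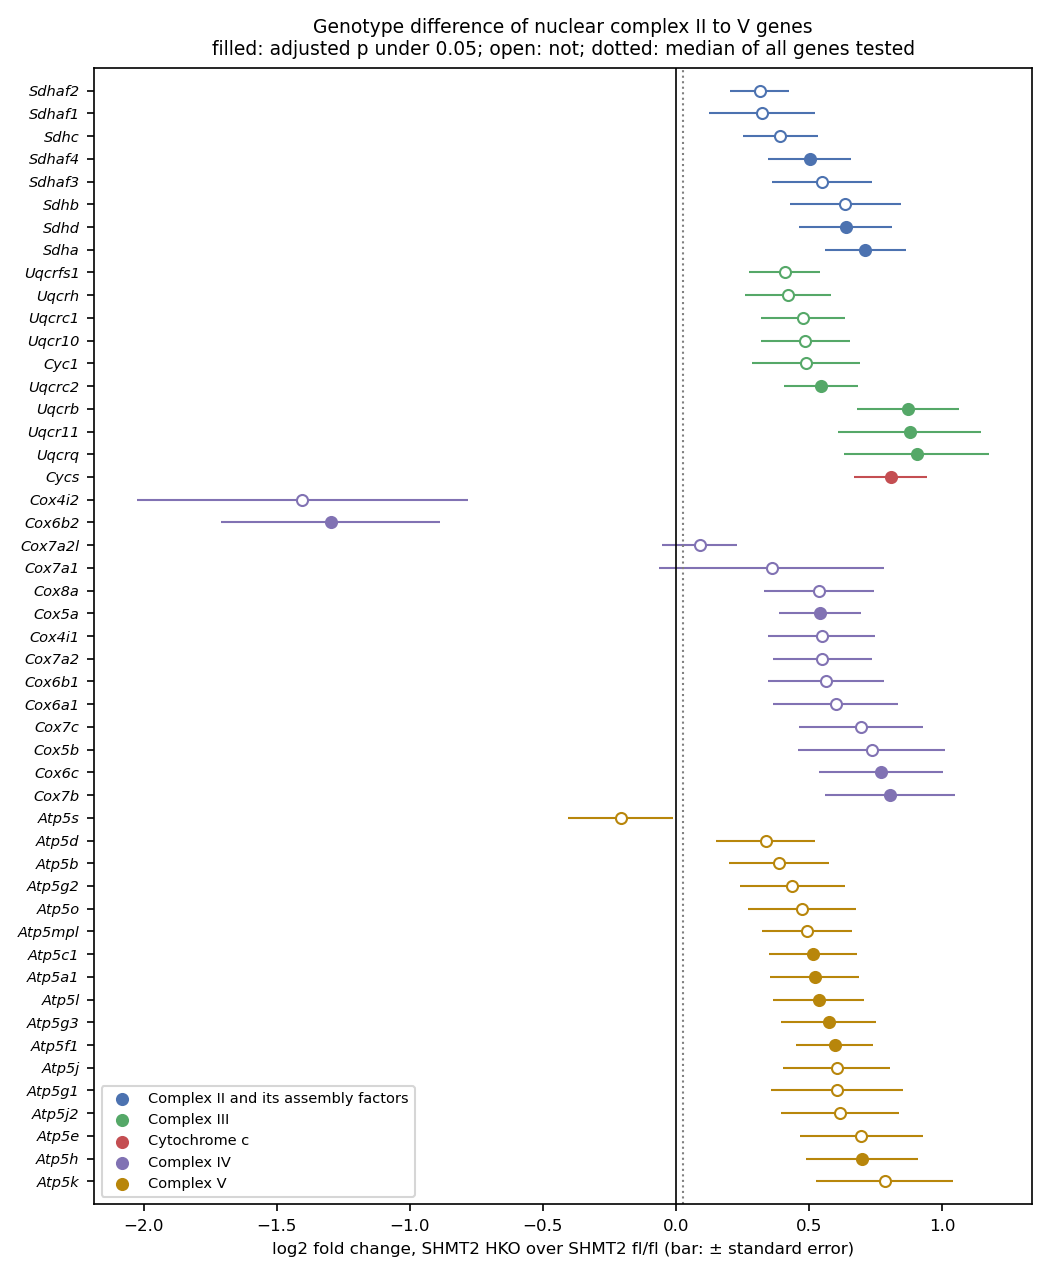
Log2 fold change of SHMT2 HKO over SHMT2 fl/fl on the TMM scale (horizontal axis) with its standard error (bars) for the 49 genes (rows, coloured by complex), where filled points passed an adjusted p of 0.05 in the edgeR test and the dotted line is the median of all 16089 genes tested. Points of the 39 main subunits lie between 0.34 and 0.90, Cox7a2l and Atp5s lie closer to the line, and Cox4i2 and Cox6b2 lie to the left, whereas with spike-in scaling 3 of the 49 points were above 0.

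For complex IV, 3 of 14 genes rose and 1 fell on the TMM scale, where 12.5% of all genes tested rose and 16.5% fell. The 10 ubiquitous or single-form subunits had log2 fold changes from 0.54 to 0.80, and Cox7b, Cox6c and Cox5a rose among them, while with spike-in scaling none of the 14 genes was above 0. For each of these 10, mouse 1 was the highest and mouse 3 the lowest of the SHMT2 HKO mice, and for 5 of the 10 the groups overlapped. Cox7b was at 79.1, 89.8 and 90.96 CPM in the SHMT2 fl/fl mice and 186, 175 and 92.6 CPM in the SHMT2 HKO mice (log2 fold change 0.80, SE 0.24, adjusted p = 0.0405).

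Cox6c was at 118, 133 and 135 CPM in the SHMT2 fl/fl mice and 292, 220 and 146 CPM in the SHMT2 HKO mice (log2 fold change 0.77, SE 0.23, adjusted p = 0.0388). In both genes SHMT2 HKO mouse 3 was the lowest of its group but still above the highest SHMT2 fl/fl mouse. Cox5b, which binds zinc in the matrix part of the enzyme, had a larger fold change than Cox5a but did not pass the test (log2 fold change 0.74, SE 0.27, adjusted p = 0.078), with levels of 153, 183 and 156 CPM in the SHMT2 fl/fl mice and 345, 317 and 156 CPM in the SHMT2 HKO mice. Cox4i1, the ubiquitous form of the largest nuclear subunit, was at 421, 499.9 and 524 CPM in the SHMT2 fl/fl mice and 863, 706 and 543 CPM in the SHMT2 HKO mice, without overlap (log2 fold change 0.55, SE 0.20, adjusted p = 0.0735).

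Cox5a, on the matrix side of the enzyme, rose with its groups apart (log2 fold change 0.54, adjusted p = 0.0316). Cox7c did not pass the test, with its groups apart (log2 fold change 0.70, adjusted p = 0.0564). Among the other ubiquitous isoforms, the log2 fold changes were 0.60 for Cox6a1, 0.56 for Cox6b1, 0.55 for Cox7a2 and 0.54 for Cox8a, with adjusted p from 0.0558 to 0.0895, none of which passed. Cox7a2l stood apart from these. Its product helps to join complexes III and IV into supercomplexes, and it was at 80.4, 104 and 89.4 CPM in the SHMT2 fl/fl mice and 107, 98.6 and 85.6 CPM in the SHMT2 HKO mice. The groups overlapped and the difference did not pass the test (log2 fold change 0.09, SE 0.14, adjusted p = 0.674).

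The tissue isoforms of complex IV were scarce, and of the 3 tested Cox6b2 alone passed the test. Cox6b2, known from testis, was at 1.37, 2.105 and 1.75 CPM in the SHMT2 fl/fl mice and 1.06, 0.405 and 0.629 CPM in the SHMT2 HKO mice. All SHMT2 HKO mice were below all SHMT2 fl/fl mice and the gene fell (log2 fold change -1.30, SE 0.41, adjusted p = 0.0458). When 1 mouse was left out, its call held without SHMT2 HKO mouse 1 (adjusted p = 0.012) and was lost without any other mouse (adjusted p from 0.0792 to 0.144). Cox4i2, known from lung and vessel walls, had 25, 19 and 18 counts in the SHMT2 fl/fl mice and 1, 8 and 6 in the SHMT2 HKO mice. The SHMT2 HKO mice were all lower, but the gene did not pass the test (log2 fold change -1.40, SE 0.62, adjusted p = 0.126), and it met the count minimum only through the SHMT2 fl/fl mice, so that it could enter the list only with a difference in this direction.

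Cox7a1, known from heart, skeletal muscle and brown fat, was at 1.56, 2.44 and 1.41 CPM in the SHMT2 fl/fl mice and 3.69, 1.92 and 1.298 CPM in the SHMT2 HKO mice. SHMT2 HKO mouse 1 was the highest and mouse 3 the lowest of all 6, and no difference passed the test (log2 fold change 0.36, SE 0.42, adjusted p = 0.562). Without SHMT2 HKO mouse 1, its log2 fold change was -0.16. Of the isoforms below the count minimum, Cox8b had 1, 5 and 6 counts in the SHMT2 fl/fl mice and 75, 0 and 3 in the SHMT2 HKO mice, so that most of its counts came from SHMT2 HKO mouse 1. Cox6a2 had 21, 4 and 27 counts in the SHMT2 fl/fl mice and 5, 2 and 8 in the SHMT2 HKO mice, Cox7b2 had 1 count in SHMT2 fl/fl mouse 3 and 0 in the other mice, and Cox8c had 0 in every mouse. Here 0 counts allow a level of up to 0.0733 to 0.152 CPM, depending on the mouse.

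Since the isoforms of a subunit take 1 place in the enzyme, the share of the tissue isoform was computed from counts per exon length, which does not depend on the scaling between libraries. The share of Cox4i2 in Cox4i1 and Cox4i2 was 0.285%, 0.28% and 0.176% in the SHMT2 fl/fl mice and 0.00966%, 0.113% and 0.0854% in the SHMT2 HKO mice. These values are a description without a test, since Cox4i2 entered the list only through its counts in the SHMT2 fl/fl mice. The share of Cox6b2 in Cox6b1 and Cox6b2 was 0.813%, 1.004% and 0.798% in the SHMT2 fl/fl mice and 0.301%, 0.125% and 0.312% in the SHMT2 HKO mice. Its share was lower in each SHMT2 HKO mouse than in any SHMT2 fl/fl mouse (p = 0.1, exact two-sided permutation test). With 10 splits of the 6 mice this test cannot give a p below 0.1.

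The share of Cox7a1 in Cox7a1 and Cox7a2 was 3.62%, 4.605% and 2.89% in the SHMT2 fl/fl mice and 4.48%, 2.48% and 2.53% in the SHMT2 HKO mice, and the groups overlapped (exact permutation p = 0.5). That of Cox8b in Cox8a and Cox8b was 0.029%, 0.195% and 0.145% in the SHMT2 fl/fl mice and 1.87%, 0% and 0.119% in the SHMT2 HKO mice, again with SHMT2 HKO mouse 1 alone at a high value (exact permutation p = 0.9). That of Cox6a2 in Cox6a1 and Cox6a2 stayed below 0.2% in all mice (exact permutation p = 0.2), so that the ubiquitous isoform made up most of each pair in every mouse.

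**Figure D3:**
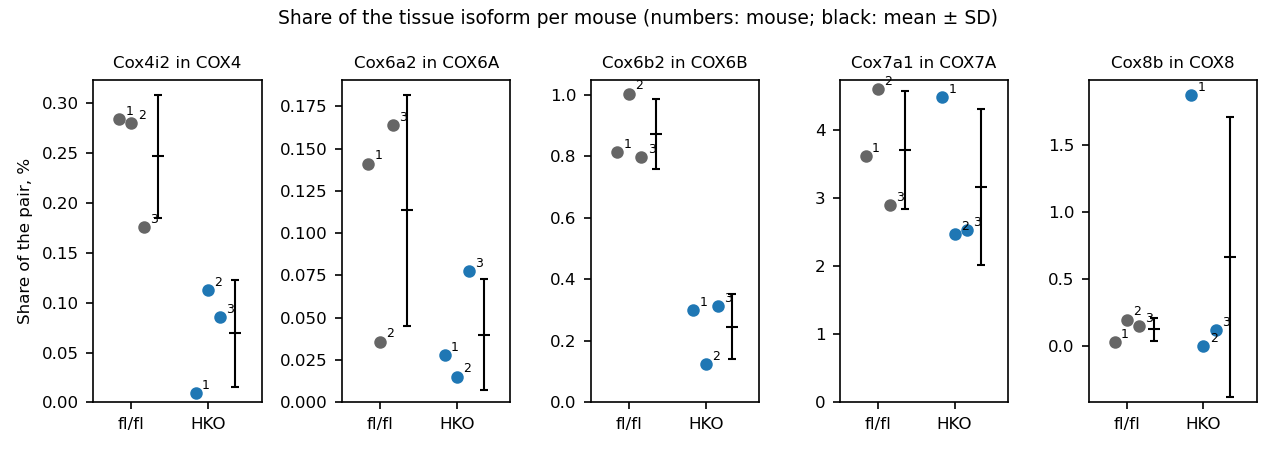
Share of the tissue isoform in its pair, in percent of the level per exon length (vertical axes, different ranges), for 5 isoforms of complex IV in each mouse, with the mouse number beside the point and the mean ± SD of 3 mice in black. The share of Cox6b2 is lower in each SHMT2 HKO mouse than in any SHMT2 fl/fl mouse, that of Cox4i2 is shown as a description since the gene met the count minimum only through the SHMT2 fl/fl mice, and the share of Cox8b reaches 1.87% in SHMT2 HKO mouse 1 and 0% in mouse 2.

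SHMT2 HKO mouse 1 also held transcripts known from fat cells. Among the adipocyte genes, Ucp1 was at 8.65, Plin1 at 4.24, Adipoq at 2.67 and Lep at 0.297 CPM in this mouse, against at most 0.130 CPM for each in the other 5. The other 2 genes of the adipocyte list, Cfd and Cidea, were higher in all 3 SHMT2 HKO mice (Cfd 4.81, adjusted p = 0.00651, Cidea 4.26, adjusted p = 0.000763, both log2 fold changes), and Cfd was the most abundant. Only these 2 of the 6 genes were tested and both rose, where 12.5% of all genes tested rose. The 6 genes summed to 3.57, 5.68 and 4.35 CPM in the SHMT2 fl/fl mice and 133, 129.9 and 54.5 CPM in the SHMT2 HKO mice. Of the 7 skeletal muscle genes, 3 were tested and 1, the fast muscle troponin gene Tnni2, was called lower, where 16.5% of all genes tested fell. Tnni2 was at 0.586, 0.677 and 0.60 CPM in the SHMT2 fl/fl mice and 0.127, 0.0506 and 0.197 CPM in the SHMT2 HKO mice (log2 fold change -2.23, adjusted p = 0.0146). It passed the filter on low counts only through the SHMT2 fl/fl mice, so that a difference could go only this way. The other 2 tested muscle genes were above 0 and did not pass the test. Their log2 fold changes were 0.48 for Mylpf (adjusted p = 0.279) and 0.33 for Acta1 (adjusted p = 0.723), and only the groups of Mylpf were apart. Myh1 was at 0 in all mice. Ckm was at 0 in all but SHMT2 HKO mouse 1 (0.127 CPM), and Myh4 was at 0.763 CPM in that mouse and at most 0.0752 CPM in the others. The 7 genes, led by Acta1, summed to 3.52 to 5.51 CPM per mouse. The part of fat and muscle transcripts in the levels of Cox8b and Cox7a1 was not tested.

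For complex V, 6 of 17 genes rose on the TMM scale (against 12.5% of all genes tested), with a median over the 17 of 0.54 (-0.25 with spike-in scaling). The 5 genes of the F1 head and its central stalk had log2 fold changes from 0.34 to 0.70, and Atp5a1 and Atp5c1, the gamma subunit gene (log2 fold change 0.51, adjusted p = 0.0491), rose. Atp5a1, the alpha subunit, which the study probed by antibody in chow-fed mice, was at 749, 839 and 843 CPM in the SHMT2 fl/fl mice and 1127, 1341 and 1019.7 CPM in the SHMT2 HKO mice, without overlap (log2 fold change 0.52, SE 0.17, adjusted p = 0.0493). Its catalytic partner, the beta subunit gene Atp5b, was at 966, 1214 and 1137 CPM in the SHMT2 fl/fl mice and 1386, 1706 and 1245 CPM in the SHMT2 HKO mice, also without overlap, and did not pass the test (log2 fold change 0.39, SE 0.19, adjusted p = 0.156).

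The delta subunit gene Atp5d had the smallest log2 fold change of the main complex V subunits (log2 fold change 0.34, SE 0.19, adjusted p = 0.21), and the epsilon subunit gene Atp5e had 1 of the largest (log2 fold change 0.70, SE 0.23, adjusted p = 0.0529). Neither passed the test. In the peripheral stalk, which holds the head in place, Atp5f1 and Atp5h rose. Atp5h was at 129, 138 and 142 CPM in the SHMT2 fl/fl mice and 278, 234 and 152 CPM in the SHMT2 HKO mice, without overlap (log2 fold change 0.70, SE 0.21, adjusted p = 0.0388). Among the membrane subunits, Atp5l rose, while Atp5k, which helps the enzyme to form dimers, had the largest log2 fold change of complex V without passing the test (log2 fold change 0.78, SE 0.26, adjusted p = 0.0529). It was at 36.9, 49.9 and 42.8 CPM in the SHMT2 fl/fl mice and 86.9, 91.1 and 45.2 CPM in the SHMT2 HKO mice, so that mouse 3 lay within the SHMT2 fl/fl range. The called genes Atp5f1 (0.60, adjusted p = 0.0185) and Atp5l (0.54, adjusted p = 0.0465) had groups apart. Of the other stalk and membrane subunit genes, Atp5j (0.60, adjusted p = 0.0543) and Atp5mpl (0.49, adjusted p = 0.0585) had groups apart and Atp5j2 (0.62, adjusted p = 0.0691) and Atp5o (0.47, adjusted p = 0.113) overlapping ones. None of these 4 passed the test, and each first value is a log2 fold change.

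The subunit c of the rotor ring is encoded by 3 genes that yield the same mature protein. On the TMM scale, Atp5g3 rose (log2 fold change 0.57, SE 0.18, adjusted p = 0.0448), and Atp5g1 (0.61, adjusted p = 0.10) and Atp5g2 (0.44, adjusted p = 0.132) did not pass the test. Per exon length, Atp5g3 made up 70.3%, 66.2% and 68.4% in the SHMT2 fl/fl mice and 65.8%, 70.1% and 71.8% in the SHMT2 HKO mice. Atp5g1 made up 13.7%, 15.6% and 15.6% in the SHMT2 fl/fl mice and 16.3%, 16.4% and 13.2% in the SHMT2 HKO mice. The groups overlapped for all 3 genes (exact permutation p from 0.4 to 0.8), a test that cannot go below 0.1 with 3 mice per group.

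Atp5s, for coupling factor B, was the one complex V gene with a fold change below 0. It was at 7.77, 6.54 and 5.45 CPM in the SHMT2 fl/fl mice and 6.32, 5.41 and 5.39 CPM in the SHMT2 HKO mice, with mice 2 and 3 of SHMT2 HKO just below the lowest SHMT2 fl/fl mouse and mouse 1 within the range. It did not pass the test (log2 fold change -0.21, SE 0.20, adjusted p = 0.469).

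Summed over its genes, complex II reached 843, 926 and 907 CPM in the SHMT2 fl/fl mice and 1339.7, 1588 and 1180.3 CPM in the SHMT2 HKO mice, a ratio of means of 1.53. Complex III reached 1232, 1405 and 1449 CPM in the SHMT2 fl/fl mice and 2353, 2336 and 1586 CPM in the SHMT2 HKO mice, a ratio of 1.54. Complex IV reached 1763, 2058 and 2083 CPM in the SHMT2 fl/fl mice and 3669, 3162 and 2079 CPM in the SHMT2 HKO mice, a ratio of 1.51. Only the complex IV sums overlapped between groups, through SHMT2 HKO mouse 3. Complex V reached 3507, 4106 and 4092 CPM in the SHMT2 fl/fl mice and 5773, 6386 and 4452 CPM in the SHMT2 HKO mice, a ratio of 1.42. The 49 genes together made up 7439.9, 8585 and 8628 CPM in the SHMT2 fl/fl mice and 13312, 13650.3 and 9435 CPM in the SHMT2 HKO mice, with means of 8218 ± 674 and 12132 ± 2342 CPM (SD, n = 3). With spike-in scaling the log2 ratios of the summed levels were below 0 for complexes II to V.

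**Figure D4:**
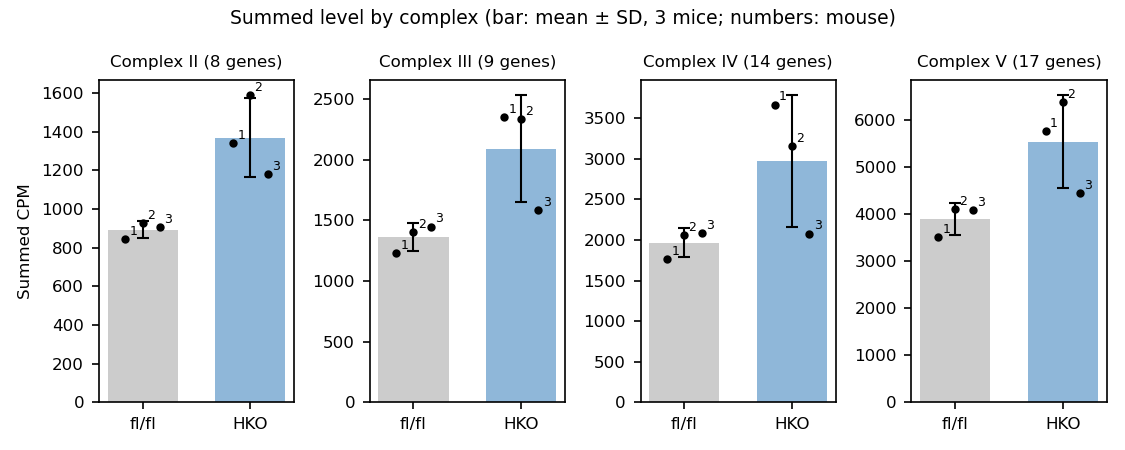
Summed level of the genes of each complex in CPM on the TMM scale (vertical axes from 0, different ranges), with bars for the mean, error bars for the SD of 3 mice and points for mice 1 to 3. The mean is 1.42 to 1.54 times that of SHMT2 fl/fl in SHMT2 HKO, mouse 3 is the lowest SHMT2 HKO mouse in each panel, and with spike-in scaling the direction turned for each complex.

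The number of genes that passed the test depended on the mice and on the method. Leaving out SHMT2 HKO mouse 3 raised it from 17 to 41 (15.0% of all genes tested then rose). Leaving out SHMT2 HKO mouse 1 gave 7 (12.0%), and SHMT2 HKO mouse 2 gave 3 (6.72%). Leaving out SHMT2 fl/fl mouse 1, 2 or 3 gave 1 (5.76%), 3 (5.20%) and 1 (4.93%). DESeq2 called 36 genes higher (15.8%), a correction for GC content and transcript length 37 (25.2%), and upper-quartile factors 6 (9.08%). Limma-voom called 17 (12.4%), edgeR with DESeq2 size factors 21 (13.0%) and edgeR without robust dispersions 16 (12.4%). Without a filter beyond 1 count 18 were higher (5.75%), and with at least 10 counts in every sample 12 (12.4%).

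With library size alone 1 gene, Cycs, was called higher (3.34%), and with spike-in scaling edgeR called 0 (0.665%), and 0 also at an unadjusted p under 0.05. At an unadjusted p under 0.05 on the TMM scale, 40 of the 49 genes and 19.5% of all genes tested were higher. The median of the 49 genes varied less than the count, from 0.46 to 0.66 when mice were left out.

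**Figure D5:**
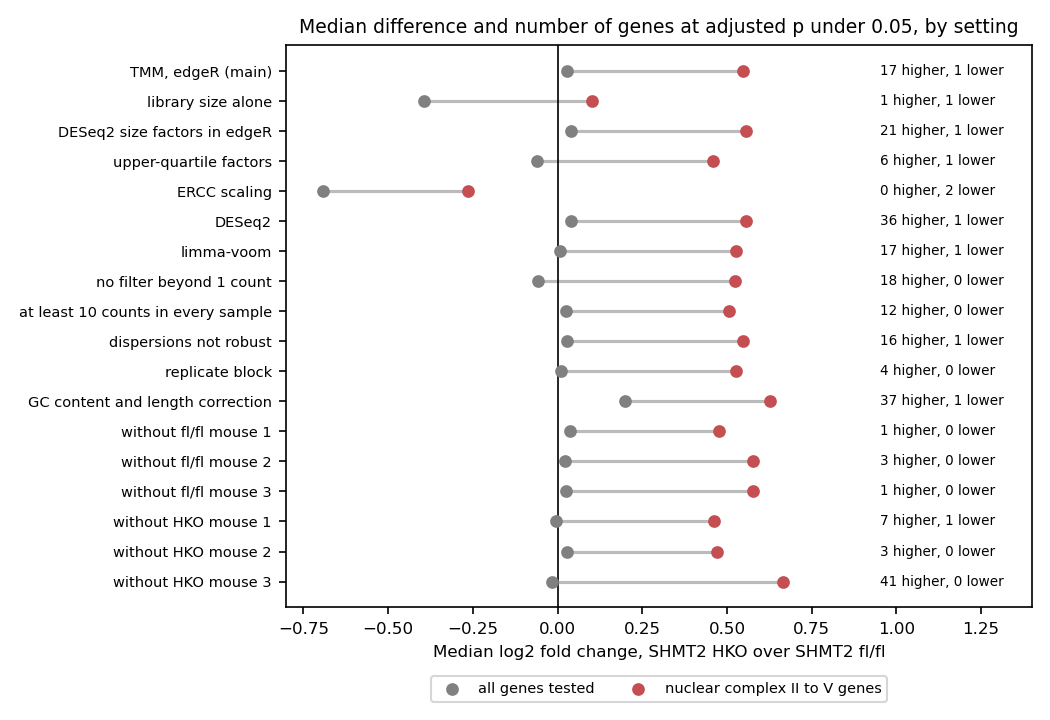
Median log2 fold change of SHMT2 HKO over SHMT2 fl/fl (horizontal axis) for the 49 genes (red) and for all genes tested (grey) under each setting (rows), with the number of the 49 genes that passed an adjusted p of 0.05 in each direction at the right. The red points lie 0.43 to 0.68 to the right of the grey ones in every row, and both lie below 0 with spike-in scaling.

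Markers of liver cell types were compared in the same way, and their counts of calls stand against 12.5% of all genes tested that rose and 16.5% that fell. The 10 hepatocyte genes, led by Alb, summed to 67873, 68686 and 83375 CPM in the SHMT2 fl/fl mice and 117944, 110670 and 78408 CPM in the SHMT2 HKO mice, with SHMT2 HKO mouse 3 inside the SHMT2 fl/fl range as for many of the 49 genes. Apob and Ttr rose (2 of 10) and the other 8 did not pass the test, with Hpx at -0.06 and Ahsg at -0.34. The median log2 fold change was 0.57 (-0.25 with spike-in scaling), close to that of the 49 genes. Spp1 was the most abundant of the 5 cholangiocyte genes, which all fell (median -2.97) and summed to 1003, 1179 and 950.4 CPM in the SHMT2 fl/fl mice and 128, 128 and 245 CPM in the SHMT2 HKO mice. The largest falls were those of Epcam (-3.12), Krt19 (-2.97) and Krt7 (-2.97), as log2 fold changes.

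Of the 8 stellate cell and myofibroblast genes, 4 fell and 1, Reln, rose (0.97, adjusted p = 0.0105). The largest changes included Col1a1 (-1.86, adjusted p = 0.0167) and Col1a2 (-1.66, adjusted p = 0.00858). The other 3 genes did not pass the test, with Lrat at 0.03, Dcn at -0.60 and Acta2 at -0.59. The sum of the 8 genes, led by Col3a1, was 1474, 1452 and 1509 CPM in the SHMT2 fl/fl mice and 359, 549 and 923 CPM in the SHMT2 HKO mice, so that SHMT2 HKO mouse 3 lay nearest to the SHMT2 fl/fl mice. Of the 5 smooth muscle and pericyte genes, 1, Notch3, fell (-1.19, adjusted p = 0.00269), a share near that of all genes tested, and their sum, led by Rgs5, was 95.4, 96.5 and 82.7 CPM in the SHMT2 fl/fl mice and 49.99, 57.1 and 76.3 CPM in the SHMT2 HKO mice. The cholangiocyte, stellate cell and smooth muscle sums were lower in every SHMT2 HKO mouse than in any SHMT2 fl/fl mouse, whereas the hepatocyte sums overlapped. The part of these 4 cell types in the levels of the 49 genes, including Cox4i2, was not tested.

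Of the 8 macrophage genes, led by Lyz2, 4 fell and Clec4f, a Kupffer cell gene, rose (2.83, adjusted p = 0.00391), and the sum was 806, 600.1 and 852 CPM in the SHMT2 fl/fl mice and 423, 524 and 578 CPM in the SHMT2 HKO mice. Trem2 was among those that fell (-1.76, adjusted p = 0.0192). Of the 6 lymphocyte genes, led by Ptprc, 3 were called lower, including the T cell genes Cd3e (-2.43, adjusted p = 0.00517) and Cd3d (-2.68, adjusted p = 0.00267), and the sum was 47.7, 31.3 and 38.9 CPM in the SHMT2 fl/fl mice and 12.5, 14.7 and 21.7 CPM in the SHMT2 HKO mice. Cd3d passed the filter on low counts only through the SHMT2 fl/fl mice, where it was high, and 2 of the 3 calls remain without it. Of the 6 endothelial genes, Stab2 and Clec4g, both of sinusoidal cells, rose (sum 185, 160.2 and 171 CPM in the SHMT2 fl/fl mice and 227, 262 and 265 CPM in the SHMT2 HKO mice). The other 4 did not pass the test and went both ways. Kdr (0.40, adjusted p = 0.0641) and Lyve1 (0.80, adjusted p = 0.0643) were above 0. Pecam1 (-0.24, adjusted p = 0.261) and Cdh5 (-0.24, adjusted p = 0.221), found in endothelial cells of all vessels, were below 0. With spike-in scaling, 2 of the 6 endothelial genes were above 0. Of the 5 erythroid genes, Alas2 rose (sum 176, 101 and 188 CPM in the SHMT2 fl/fl mice and 231, 245 and 219 CPM in the SHMT2 HKO mice). Values in parentheses after a gene are log2 fold changes on the TMM scale, and with spike-in scaling Stab2 and Alas2 turned to -0.15 and -0.08. The part of these cells was not tested either.

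Genes that serve the complexes without being subunits were examined next. Of 37 assembly factors of complexes II to V, 36 were tested and 7 rose on the TMM scale (19.4%, against 12.5% of all genes tested). All 36 had a fold change above 0, as had 51.9% of all genes tested (median 0.40, against -0.38 with spike-in scaling). Among the 7 that rose, the largest were those of Cox16 (0.67, adjusted p = 0.0243) and Coa6 (0.62, adjusted p = 0.0429), both needed to mature the copper site of complex IV, and Sdhaf4 described above. ATP made by complex V leaves the matrix through ADP/ATP carriers, and these moved in opposite directions. Slc25a5, the most abundant of the carrier list, was at 319.9, 331 and 356 CPM in the SHMT2 fl/fl mice and 479, 562 and 449.9 CPM in the SHMT2 HKO mice and rose (log2 fold change 0.57, SE 0.15, adjusted p = 0.0237).

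Slc25a4, the carrier of heart and muscle, was at 34.2, 41.6 and 35.3 CPM in the SHMT2 fl/fl mice and 21.6, 13.6 and 14.2 CPM in the SHMT2 HKO mice and fell (log2 fold change -1.17, SE 0.19, adjusted p = 0.00421). The groups did not overlap in either gene, and with spike-in scaling Slc25a5 turned to -0.18. The phosphate carrier gene Slc25a3 did not pass the test (0.27, adjusted p = 0.166), and Slc25a31 was below the count minimum.

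Of 12 regulators of respiratory gene expression, Tfam and Tfb2m rose on the TMM scale, and the only other call was that of Esrrg, which could be tested only in this direction. Of all genes tested, 12.5% rose. Tfam, which packages and transcribes mitochondrial DNA, was at 35.2, 33.8 and 33.5 CPM in the SHMT2 fl/fl mice and 49.2, 44.97 and 42.9 CPM in the SHMT2 HKO mice (log2 fold change 0.42, SE 0.11, adjusted p = 0.0212). Tfb2m, its partner at mitochondrial promoters, rose as well (log2 fold change 0.55, SE 0.14, adjusted p = 0.0217), and both turned with spike-in scaling, to -0.32 and -0.12. Esrrg, an estrogen-related receptor, rose from low levels, at 0.391, 0.0376 and 0 CPM in the SHMT2 fl/fl mice and 2.798, 2.93 and 0.786 CPM in the SHMT2 HKO mice (log2 fold change 3.78, SE 0.99, adjusted p = 0.0247). It passed the filter on low counts only through the SHMT2 HKO mice. Its call was lost without SHMT2 fl/fl mouse 2 (adjusted p = 0.0893), SHMT2 fl/fl mouse 3 (0.0594) or SHMT2 HKO mouse 2 (0.0686). Its fitted log2 fold change was 6.73 without SHMT2 fl/fl mouse 1 and is no bound. Nrf1, whose letters were found in many of the promoters, was at 13.9, 15.9 and 15.1 CPM in the SHMT2 fl/fl mice and 14.03, 9.92 and 12.2 CPM in the SHMT2 HKO mice with overlapping groups. It did not pass the test (log2 fold change -0.31, adjusted p = 0.187).

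The log2 fold changes of Gabpa, the DNA-binding part of GABP (0.31, adjusted p = 0.228), Esrra (0.22, adjusted p = 0.285) and the coactivator gene Ppargc1a (-0.26, adjusted p = 0.50) did not pass either. Among the 38 genes with a promoter window, the median log2 fold change was 0.56 for the 12 with NRF1 letters and 0.55 for those without, and 0.60 for the 15 with ETS letters and 0.51 for those without. These medians are descriptions without a test.

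The other mitochondrial lists are given for comparison, on the TMM scale and with the median under spike-in scaling in parentheses after each median. Complex I subunits rose in 20 of 37 genes (54.1%, against 12.5% of all genes tested) with a median of 0.60 (-0.21), the largest calls being Ndufa5, Ndufa3 and Ndufs6. TCA cycle genes rose in 6 of 13 (46.2%) with a median of 0.44 (-0.24), the largest calls being Sucla2, Suclg2 and Idh3b. Genes of the outer membrane and import machinery rose in 3 of 9 (33.3%) with a median of 0.31 (-0.45), namely Tomm70a, Timm23 and Timm44.

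Mitochondrial ribosomal protein genes rose in 12 of 78 (15.4%) with a median of 0.35 (-0.45), which is near the 12.5% of all genes tested that rose. The largest of these were Mrpl41, Mrpl34 and Mrps7. The 13 subunit genes of mitochondrial DNA all rose, with a median of 1.11 (0.28), and mt-Co1, the most abundant and the catalytic core of complex IV, had a mean of 11352 CPM in SHMT2 fl/fl and 19242 CPM in SHMT2 HKO. Several of these 13 were counted at a few CPM only, such as mt-Atp6 (2.57, 1.99 and 2.03 CPM in the SHMT2 fl/fl mice and 6.49, 6.93 and 4.17 CPM in the SHMT2 HKO mice), mt-Atp8 and mt-Nd4l, which had the 3 largest fold changes. With unique hits alone the levels of single mitochondrial genes are uncertain. Whether these lists differ from the 49 genes was not tested.

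The 49 genes share features that did not enter their choice. Their principal transcripts had a median length of 838 bases, against 2967 for the 14054 protein-coding genes tested. The 27 genes with transcripts of up to 1000 bases had a median log2 fold change of 0.55 and the 22 longer ones of 0.52, while among all protein-coding genes tested the medians were 0.20 for the 833 of up to 1000 bases and 0.01 for the longer ones. Starts within 1000 bases of a gene on the other strand were found for 15 of the 49 genes (30.6%) and for 14.9% of protein-coding genes tested.

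Among these pairs, Sdhd lies 98 bases from Timm8b, an import chaperone gene with a log2 fold change of 0.42 that did not pass the test, Sdha 29 bases from Ccdc127 with 0.17, and Atp5j 700 bases from Gabpa. The 49 genes lie on 19 chromosomes. Exons of 15 of the 49 genes overlap those of another gene. Apart from Sdhaf1 (69.6% of its exon length), the overlap with any 1 gene was at most 19.7%, for Uqcrc2 with Pdzd9 on the opposite strand. Reads in these stretches may have been left out or assigned to either gene.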

How the data were processed

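The authors trimmed read pairs from liver total RNA libraries (NEBNext Ultra, Illumina HiSeq), mapped the reads to the GRCm38 genome plus spike-in sequences and counted unique hits per gene. The submitters' processing notes name Trimmomatic 0.36, STAR 2.5.2b and featureCounts of Subread 1.5.2. The deposited values are these counts, not normalized. Strand use and treatment of overlapping genes are not given in the sources used here.

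Symbols were taken from GENCODE vM21 (49326 of 49671 gene IDs matched). The 92 spike-in (ERCC) entries entered neither library sizes nor tests. Genes were filtered with filterByExpr, scaled by TMM and tested with the edgeR 4.0.16 quasi-likelihood F test (R 4.3.3, robust, two-sided), and p-values were adjusted by Benjamini-Hochberg over 16089 genes at a threshold of 0.05. CPM used TMM-scaled library sizes. Alternatives were other scalings, DESeq2 1.42.0, limma-voom (limma 3.58.1), other filters, a replicate block, a loess correction for GC content and length (span 0.5) and leaving out each mouse.

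Named were all genes of complex II, cytochrome c and c1, tissue isoforms, subunits probed by antibody, the 3 largest and 3 smallest fold changes of complexes III to V, members that fell, the 3 largest calls per other list, and 5 regulators. Other genes named because they complete a small count, lead a list by abundance, or lie beside or over a respiratory gene were chosen after their values were seen. The genes and lists were chosen with earlier results of these data known. On simulated counts for 15850 genes, 84.4% of genes changed by 1 on the log2 scale and all of those changed by 2 were recovered. There were 11 false calls, and smaller changes were not simulated. The main subunits that did not pass the test had log2 fold changes from 0.34 to 0.78. The simulated rates therefore do not show how often changes of that size would be recovered. Isoform shares were compared by exact permutation over the 10 splits of the mice, two-sided. The limit set by 0 counts covers counting error only.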

Additional observations from a re-analysis of the deposited data

How the results depend on the processing

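Shmt2 was lower in SHMT2 HKO with an adjusted p under 0.05 under all 17 alternatives, and its log2 fold change was -2.16 to -1.92 when mice were left out. The calls of the respiratory genes were less stable, and the cause of each change below was not tested. Leaving out 1 mouse gave 1 to 41 higher and 0 to 1 lower calls among the 49 genes, with 0 to 6 higher for complex II, 0 to 9 for complex III, 0 to 10 for complex IV, 0 to 15 for complex V and 1 for cytochrome c in each case. In the same fits, 4.93% to 15.0% of all genes tested rose and 9.92% to 18.3% fell. A fit of 2 mice against 3 has fewer residual degrees of freedom.

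With the replicate number as a block, 4 genes were higher and 0 lower (8.68% of all genes tested rose), with 2 for complex II, 1 for complex III, 0 for complexes IV and V and 1 for cytochrome c, and at an unadjusted p under 0.05 there were 30 higher and 1 lower (17.0% and 20.7% of all genes tested). Whether same-numbered mice share anything beyond the number is not known. Their deviations correlated at -0.0459, 0.0125 and -0.0766 across genes, which cannot show whether the mice were paired.

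DESeq2 gave 36 higher calls (6, 7, 10 and 12 for complexes II, III, IV and V) and 1 lower, where 15.8% of all genes tested rose and 17.9% fell. The GC content and length correction gave 37 (6, 8, 9 and 13) and 1, where 25.2% rose and 13.8% fell. It moved the median of all genes by 0.17 on the log2 scale. Limma-voom gave 17 and 1 (12.4% of all genes tested rose and 17.4% fell). DESeq2 size factors gave 21 and 1 (13.0% and 16.1%), and dispersions without robust estimation 16 and 1 (12.4% and 16.5%). Upper-quartile factors gave 6 (2 for complex III, 0 for complex IV and 1 for complex V), where 9.08% of all genes tested rose. Without a filter beyond 1 count there were 18 higher (5.75%), 5 of them for complex IV, and 0 lower. With at least 10 counts in every sample, 47 genes were tested and there were 12 higher (12.4%), 2 of them for complex V, and 0 lower, since Cox6b2 was not among those tested. Library size alone left 1 higher call (Cycs) and 0 for complexes II to V, and spike-in scaling left 0 and raised the lower calls to 2 (17.1% of all genes tested fell). The added lower call was Cox4i2, which met the count minimum only through the SHMT2 fl/fl mice and could differ only in this direction. In these edgeR fits the counts of higher genes at an unadjusted p under 0.05 were 31 with upper-quartile factors (14.9% of all genes tested), 2 with library size alone (5.02%) and 0 with spike-in scaling (1.03%). The lower ones were 2 (25.0%), 4 (41.2%) and 2 (27.4%) under the same 3 scalings. They were 1 without a filter beyond 1 count (13.6% of all genes tested) and 0 with at least 10 counts in every sample (21.4%).

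The log2 ratios of the summed levels were 0.18 for complex II, 0.17 for complex III, 0.14 for complex IV, 0.065 for complex V, 0.37 for cytochrome c and 0.12 for all 49 genes with library size alone, and -0.14, -0.20, -0.25, -0.28, 0.020 and -0.24 with spike-in scaling. When mice were left out they ranged from 0.50 to 0.69, 0.53 to 0.76, 0.42 to 0.77, 0.39 to 0.62, 0.75 to 0.90 and 0.47 to 0.69.

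With spike-in scaling, 54 of the 86 genes chosen by the naming rule turned in direction, with log2 fold changes of Sdha -0.012, Sdhaf1 -0.44, Sdhaf2 -0.43, Sdhaf3 -0.15, Sdhaf4 -0.30, Sdhb -0.21, Sdhc -0.37, Sdhd -0.15, Cyc1 -0.31, Uqcr11 -0.024, Uqcrc1 -0.30, Uqcrc2 -0.21, Uqcrfs1 -0.34, Uqcrh -0.38, Cox4i1 -0.27, Cox5b -0.16, Cox6a1 -0.26, Cox6b1 -0.28, Cox6c -0.099, Cox7a1 -0.54, Cox7a2 -0.27, Cox7a2l -0.66, Cox7b -0.085, Cox8a -0.31, Atp5a1 -0.23, Atp5b -0.37, Atp5d -0.48, Atp5e -0.17, Atp5g1 -0.25, Atp5g2 -0.38, Atp5g3 -0.22, Atp5h -0.16, Atp5k -0.088, Apob -0.066, Ttr -0.055, Stab2 -0.15, Alas2 -0.081, Cox16 -0.16, Coa6 -0.14, Slc25a5 -0.18, Esrra -0.46, Gabpa -0.33, Tfam -0.32, Tfb2m -0.12, Idh3b -0.23, Sucla2 -0.072, Suclg2 -0.11, Tomm70a -0.17, Timm23 -0.34, Timm44 -0.41, Ndufs6 -0.085, Mrpl41 -0.21, Mrpl34 -0.17 and Mrps7 -0.20, and the 10 respiratory genes outside that rule turned too, to between -0.35 and -0.18. With library size alone 15 turned, namely Sdhaf1 -0.11, Sdhaf2 -0.12, Sdhc -0.042, Uqcrfs1 -0.025, Uqcrh -0.019, Cox7a1 -0.10, Cox7a2l -0.34, Atp5b -0.048, Atp5d -0.11, Atp5g2 -0.0074, Esrra -0.20, Gabpa -0.096, Tfam -0.010, Timm23 -0.018 and Timm44 -0.087, and without SHMT2 HKO mouse 1 Cox7a1 turned to -0.16 (up to 0.63 without another mouse). Differences in isoform share (SHMT2 HKO minus SHMT2 fl/fl, percentage points) ranged, when mice were left out, from -0.296 to 1.37 for Atp5g1, -2.50 to -0.284 for Atp5g2, -0.368 to 2.66 for Atp5g3, -0.213 to -0.148 for Cox4i2, -0.112 to -0.0484 for Cox6a2, -0.662 to -0.559 for Cox6b2, -1.202 to -0.0933 for Cox7a1 and -0.0635 to 0.873 for Cox8b, the last below 0 only without SHMT2 HKO mouse 1. The length of the principal transcript, chosen after seeing the data, and counts without length scaling kept the direction of every share. Depth limits Cox4i2, Cox6b2, Cox7a1, Cox8b and Cox6a2, of which no mouse held over 100 counts.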
